A study of Mus musculus with 21 samples.

Results

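The 38 genes described here were selected because their signal was highest in the middle of the presomitic mesoderm (PSM), in dissected parts 3 to 5. For each of 18193 genes the probe set with the highest mean was taken on the scale log2(signal + 16). A gene was kept if the mean of the 9 arrays of parts 3 to 5 exceeded both the mean of parts 1 and 2 and the mean of parts 6 and 7 by at least 0.5. The measured values thus chose the genes, and their middle-to-flank differences are given as a description with no test. On size alone 45 genes passed. The 7 that the rule leaves out by name were Shisa3, Mesp2, Bmp2, Ddit4, Itga8, Pcdh8 and Mesp1. All 38 remaining genes reached the median of the table, a signal of 13.3, in at least 3 arrays, as did 12141 genes in all.

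CD-1 embryos, of an outbred mouse stock, were labelled as embryonic day 8.5 and dissected at 9.0 days post-coitus. After a short pancreatin digestion the tissue around the PSM was removed and the PSM was divided into 7 parts, each with 3 Affymetrix arrays, 21 in all. RNA was amplified in a pair of rounds before hybridisation. The labels name no mutation or treatment, and all groups differ only by part. The orientation of the numbers, tailbud or somite end first, is not stated, and parts are called by number. Left and right PSM of 1 embryo gave separate samples, so some arrays share an embryo, and the p-values speak of these arrays and not of embryos in general.

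The PSM is the unsegmented mesoderm from which somites bud off in sequence. Cells enter it at the tailbud under FGF and Wnt signals, pass through cycles of Notch-dependent transcription, and take on segment identity near the front, where Mesp2 and its targets set the future boundary. Cadherins, protocadherins and matrix proteins then reshape the tissue into epithelial somites. The lateral plate and intermediate mesoderm, which form limb, gut wall, heart and kidney tissue, lie directly beside it, and blood vessels run through it.

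Total signal as deposited was alike in all arrays, with array means of 151 to 154, which hide a change shared by most genes. Cdx2, a tailbud transcription factor, had its highest mean in part 1 at 8.98 ± 0.45 (SD, n = 3) and its lowest in part 6 at 4.65 ± 0.44. Meox1, a somite transcription factor, had means of 5.29 ± 0.59, 5.81 ± 0.78, 8.49 ± 0.95, 10.77 ± 0.33 and 11.23 ± 0.08 in parts 1 to 5 and 11.58 ± 0.02 in part 6. 12 of 21 arrays were more alike to another part than to their own. The widest gaps were those of replicate 3 of part 2, whose profile correlated at r = 0.06 across genes with its own part and at 0.32 with part 1, and of replicate 2 of part 7, at 0.33 with its own part and 0.55 with part 6. In the latter the presomitic markers summed to a signal of 888 against 350 and 417 in the other arrays of part 7. The tests of parts 2 and 7 are given with and without these arrays.

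The highest part mean lay in part 3 for 6 genes (Gdnf, Plvap, Osr1, Grem1, Prrx1 and Emilin2), in part 4 for 21 and in part 5 for 11. The lowest part mean lay in part 1 for 22, in part 7 for 11, in part 6 for 4 and in part 2 for 1 (Megf10). In 22 of them each part mean up to the summit was above the one before it and each later mean below the one before it, a shape the selection favours, and 14 of these had their summit in part 4. Of all genes that reach the filter, 4.74% had such part means. Within the arrays of one replicate number, 37 of 38 had their highest part among parts 3 to 5 for all 3 numbers, and 13 had the same part each time. Prrx1 was the exception, with its highest array in part 2 for replicate 3. The same arrays chose the genes, and the share over all genes was not computed. Nothing is therefore read from these counts by replicate number.

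**Figure D1:**
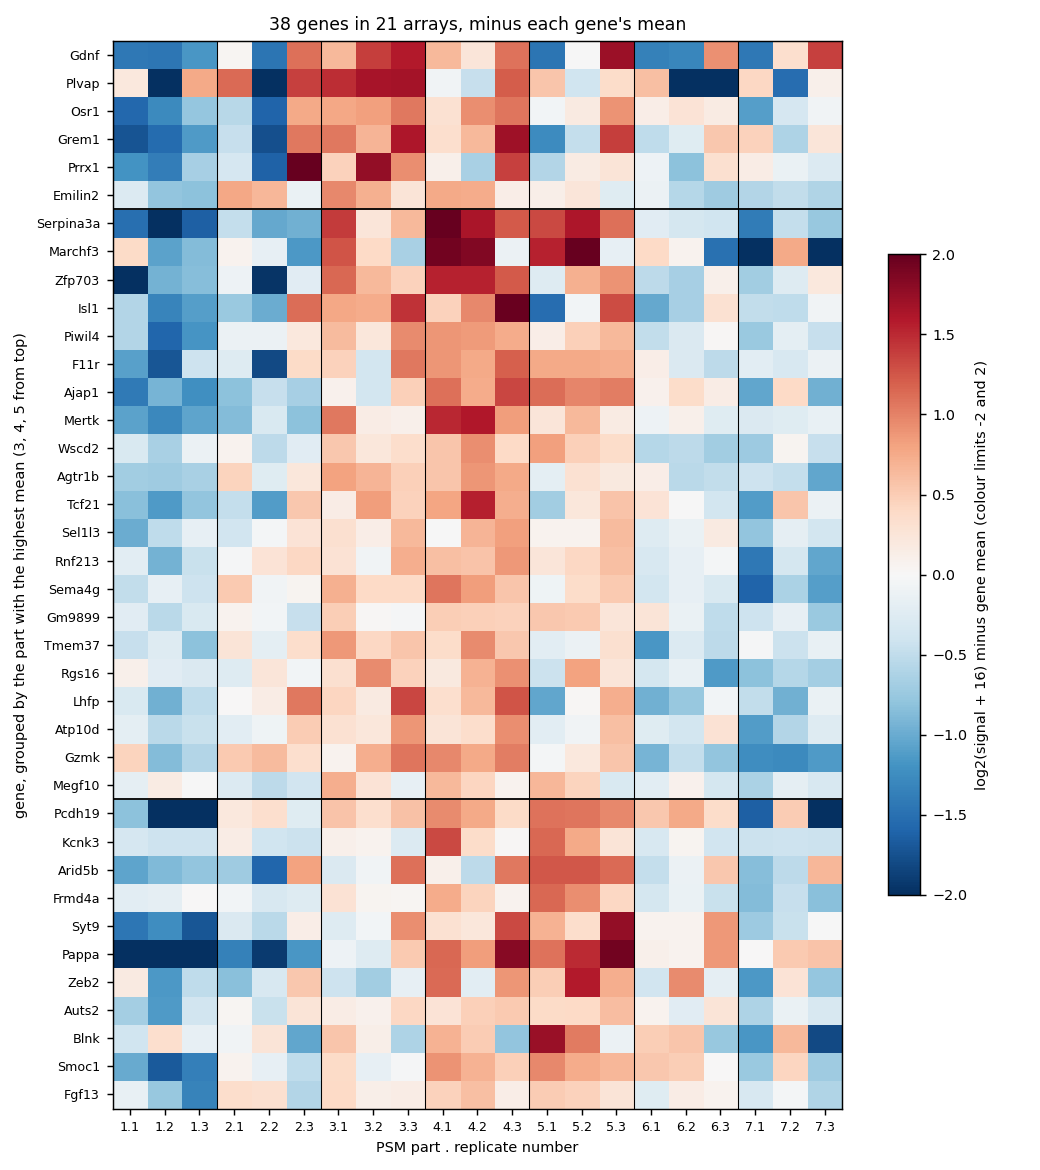
Log2(signal + 16) of the 38 genes (rows) in the 21 arrays (columns, part and replicate number), as the difference from each gene's mean over all arrays, with colours limited at -2 and 2. Rows are grouped by the part with the highest mean, 6 genes for part 3, 21 for part 4 and 11 for part 5, and within some rows the 3 arrays of one part differ as much as neighbouring parts do.

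The summit was low for most of them. The smaller of the 2 differences that the rule uses ran from 0.50 to 1.86, with a median of 0.63 against -0.12 over all genes that reach the filter, and in 4 genes it was 1 or more (Serpina3a, Marchf3, Zfp703 and Isl1). It was the difference from parts 6 and 7 in 21 genes and that from parts 1 and 2 in 17. In 3 genes, Serpina3a, Wscd2 and Frmd4a, all 9 middle arrays lay above all 12 others. Over all genes that reach the filter the share was 0.0247%, and since the selection used the same values nothing is read from it. Wscd2 reached the filter only through the middle arrays, as all its arrays in parts 1, 2, 6 and 7 were under the table median. The same held for Kcnk3, whose arrays of part 3 were also under it. Gm9899 and Megf10 each had 1 flank array at or over the median, against the 3 arrays that the filter requires. They too passed only with the middle arrays. Just inside the threshold stood Megf10 at 0.510, Fgf13 at 0.506 and Emilin2 at 0.504. Just outside it stood Spock2 at 0.499, Prkch at 0.495 and Gm26588 at 0.486, with no gap between the 2 sides.

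Serpina3a had the highest summit. It belongs to a mouse cluster of secreted serine protease inhibitors (probe set 1421556_at). Its arrays, in the order of replicates 1 to 3, read 5.11, 4.52 and 4.99 in part 1 and 6.14, 5.60 and 5.66 in part 2. They read 8.03, 6.86 and 7.27 in part 3, 8.75, 8.26 and 7.85 in part 4, and 7.93, 8.24 and 7.72 in part 5. They read 6.40, 6.27 and 6.22 in part 6 and 5.21, 6.14 and 5.86 in part 7. Every middle array was above every flank array, and parts 4 and 5 overlapped. The middle mean was 5.82-fold that of parts 1 and 2 and 3.63-fold that of parts 6 and 7, on the log2(signal + 16) scale, which understates changes of dim genes. In bulk tissue, fewer cells of a type and less RNA per cell cannot be told apart.

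Promoter sequence is shown for the gene with the highest summit in each of the 3 middle parts: Gdnf for part 3, Serpina3a for part 4 and Pcdh19 for part 5. The windows of 300 bases around the annotated start are those of RefSeq on GRCm38.p6, 5′ to 3′ on the strand of the gene. Capitals mark a match to one of 5 short motifs searched on both strands: TGGGAA (RBPJ, the Notch effector), AGGTGT (the core of a T-box site), CTTTGA (TCF/LEF, the Wnt effector), CAGGTG (the E-box of Zeb and Snail factors) and AGGTCA (the core of a nuclear receptor site). The Gdnf window (chr15:7809798-7810097, + strand) holds AGGTCA.
Gdnf: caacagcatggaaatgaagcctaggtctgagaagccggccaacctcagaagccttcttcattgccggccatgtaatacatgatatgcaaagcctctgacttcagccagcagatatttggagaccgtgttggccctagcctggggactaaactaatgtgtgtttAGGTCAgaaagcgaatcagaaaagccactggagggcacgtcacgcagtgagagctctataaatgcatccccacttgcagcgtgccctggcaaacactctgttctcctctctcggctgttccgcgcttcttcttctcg
The Serpina3a window (chr12:104112474-104112773, + strand) holds TGGGAA on the other strand.
Serpina3a: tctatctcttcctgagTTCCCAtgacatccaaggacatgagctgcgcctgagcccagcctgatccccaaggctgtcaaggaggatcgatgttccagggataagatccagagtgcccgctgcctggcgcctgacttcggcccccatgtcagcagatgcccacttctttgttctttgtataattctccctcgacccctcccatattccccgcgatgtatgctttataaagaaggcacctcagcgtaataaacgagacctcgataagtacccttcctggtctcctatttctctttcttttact
The Pcdh19 window (chrX:133688944-133689243, minus strand) holds none of the 5 and is richer in G and C, at 67.7% against 51.7% for Gdnf and 51.3% for Serpina3a.
Pcdh19: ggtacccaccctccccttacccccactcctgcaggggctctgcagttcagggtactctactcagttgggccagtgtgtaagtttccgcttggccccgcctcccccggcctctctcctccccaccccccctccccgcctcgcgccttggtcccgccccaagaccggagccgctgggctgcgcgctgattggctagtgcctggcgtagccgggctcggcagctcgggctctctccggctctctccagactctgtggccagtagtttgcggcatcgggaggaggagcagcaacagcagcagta

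RefSeq windows were at hand for 26 of the 38 genes, 38 windows in all, and each of the 5 motifs was less common in them than in all 32851 windows. TGGGAA stood in 18.4% of their windows against 25.6%, CAGGTG in 7.89% against 20.2%, AGGTCA in 7.89% against 16.3%, CTTTGA in 5.26% against 16% and AGGTGT in 5.26% against 13.7%. The genes with TGGGAA were Emilin2, F11r, Frmd4a, Piwil4, Serpina3a, Tcf21 and Zeb2. Zeb2 itself encodes a factor that binds the CAGGTG E-box, which stood in the windows of Blnk, F11r and Rnf213. A match to such short letters describes the sequence alone, and these windows leave out distant enhancers.

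The next summits in height belonged to Marchf3, Zfp703, Isl1 and Pcdh19. Marchf3 encodes a membrane-bound RING ubiquitin ligase (1436614_at). Its part means were 6.83 ± 0.79, 6.93 ± 0.64, 7.68 ± 0.96, 8.57 ± 1.15, 8.48 ± 1.15, 7.00 ± 1.01 and 5.93 ± 1.90 from part 1 to part 7. The errors were wide. Replicate 3 was below replicate 1 in each part, while replicate 2 was the lowest array in part 1 and the highest in parts 5 and 7. In part 7 replicate 2 read 8.11 against 5.02 and 4.66. Its middle and flank arrays overlapped, with 6 of 12 flank arrays above the lowest middle array.

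Zfp703, a zinc finger co-repressor (1436026_at), had its summit in part 4 in every replicate number. Its arrays read 5.79, 6.88 and 6.98 in part 1, 7.74, 5.87 and 7.61 in part 2 and 8.98, 8.48 and 8.30 in part 3. They read 9.37, 9.36 and 9.06 in part 4, 7.58, 8.54 and 8.74 in part 5, 7.31, 7.17 and 7.94 in part 6 and 7.14, 7.57 and 8.04 in part 7. The part 4 arrays were the highest of all 21, and the SD there was 0.18. Zfp703 was 3.73-fold higher in the middle than in parts 1 and 2 and 2.27-fold higher than in parts 6 and 7.

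Pcdh19 encodes a protocadherin, a homophilic adhesion molecule that is also an epilepsy gene in humans (1437360_at). Its arrays read 9.33, 7.43 and 8.15 in part 1 and 10.37, 10.48 and 9.91 in part 2. They read 10.73, 10.49 and 10.74 in part 3, 11.10, 10.90 and 10.54 in part 4 and 11.24, 11.23 and 11.12 in part 5. They read 10.69, 10.92 and 10.52 in part 6 and 8.52, 10.66 and 8.16 in part 7. Pcdh19 thus formed a plateau from part 2 to part 6 with low ends, and replicate 2 of part 7 read like part 6. Pcdh8, the protocadherin of the segment boundary that the rule leaves out by name, had a smaller difference of 1.03 against 0.99 for Pcdh19.

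**Figure D2:**
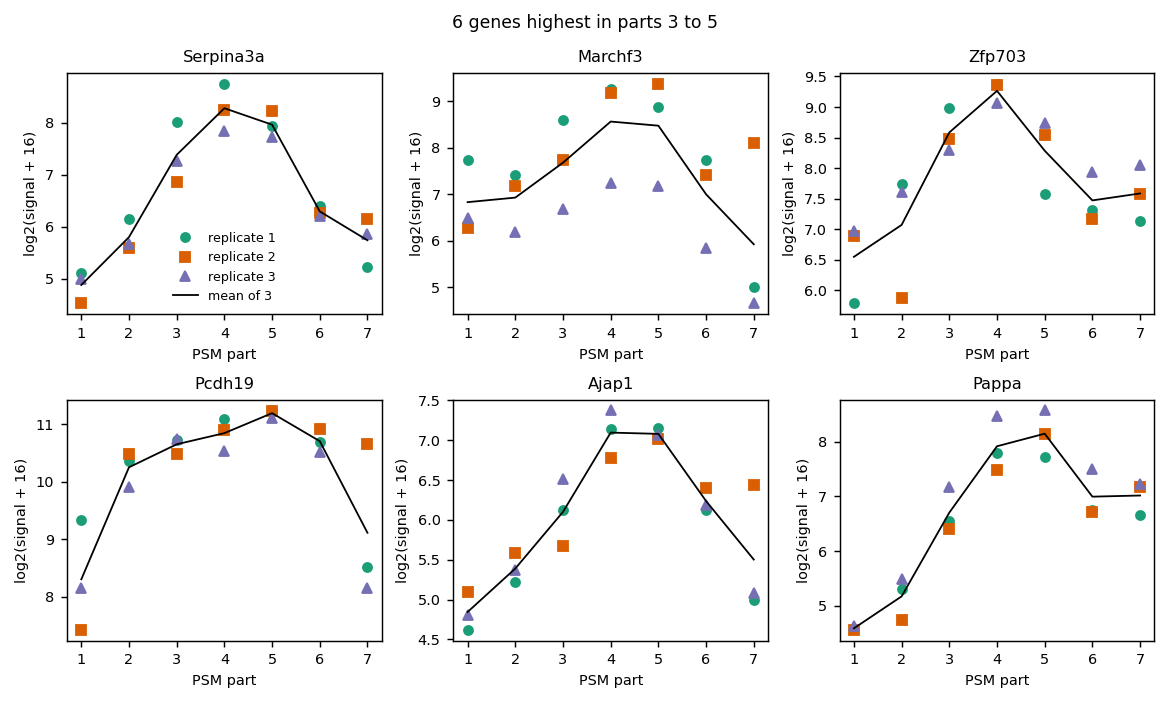
Log2(signal + 16) (vertical axis, a separate range for each gene) by PSM part for Serpina3a, Marchf3, Zfp703, Pcdh19, Ajap1 and Pappa; symbols are the arrays of replicates 1 to 3 and the line joins the part means. Serpina3a and Zfp703 reach their summits in part 4, Pcdh19 and Pappa theirs in part 5, and in part 7 replicate 2 lies above the other arrays for Marchf3, Pcdh19 and Ajap1.

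Of the 38 genes, 8 encode transcription or chromatin factors. Besides Zfp703 these were Isl1, Osr1, Tcf21, Prrx1, Arid5b, Zeb2 and Auts2. Isl1, a LIM homeodomain factor of heart progenitors, hindlimb field and motor neurons (1450723_at), read 6.85, 6.82 and 7.52 in part 3, 6.54, 7.03 and 8.06 in part 4 and 4.56, 6.03 and 7.39 in part 5. In parts 1 and 2 it read 5.49, 4.76, 4.98, 5.34, 5.08 and 7.19, and in parts 6 and 7 5.06, 5.41, 6.38, 5.59, 5.57 and 6.00. Replicate 3 was the highest array of Isl1 in 6 of 7 parts, and all 12 flank arrays lay above the lowest middle array.

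Osr1, a zinc finger factor of intermediate and lateral mesoderm (1449350_at), had means of 6.56 ± 0.16, 6.44 ± 0.41 and 6.01 ± 0.49 in parts 3, 4 and 5. In part 1 its mean was 4.47 ± 0.40 and in part 7 5.18 ± 0.53. Tcf21, a bHLH factor of visceral and cardiac mesenchyme, was highest in part 4 in each replicate number, at 5.96, 6.73 and 5.90. In replicate 3 the neighbouring parts were close, at 5.72, 5.64 and 5.74 in parts 2, 3 and 5. Prrx1, a homeodomain factor of limb and other mesenchyme, read 6.13, 7.43 and 6.60 in part 3, and its single highest array, 7.92, was replicate 3 of part 2.

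Arid5b, an AT-rich DNA-binding protein, had a mean of 6.07 ± 0.80 in part 4 and 7.07 ± 0.06 in part 5. The rise lay in replicates 1 and 2, was small in replicate 3, and was not tested. Its part 4 arrays read 5.97, 5.33 and 6.92 and its part 5 arrays 7.10, 7.10 and 6.99, so that the SD of 0.06 in part 5 was the smallest of its 7 parts. Zeb2, a repressor that acts on E-boxes and favours mesenchymal character, had means of 6.36 ± 0.26, 7.38 ± 0.72 and 7.72 ± 0.57 in parts 3 to 5 and 6.91 ± 0.71 in part 6. Auts2, a nuclear protein found with a Polycomb complex, spanned a narrow range, from 9.04 ± 0.38 in part 1 to 10.23 ± 0.13 in part 5 and 9.41 ± 0.24 in part 7.

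A further 7 genes encode secreted proteins. Pappa, a metalloprotease that cleaves IGF-binding proteins and so frees IGF, had the largest difference from parts 1 and 2, 6.55-fold (1432591_at). Its arrays read 4.57, 4.56 and 4.63 in part 1, 5.30, 4.73 and 5.48 in part 2, 6.55, 6.40 and 7.17 in part 3 and 7.80, 7.49 and 8.47 in part 4. They read 7.73, 8.14 and 8.57 in part 5, 6.75, 6.72 and 7.51 in part 6 and 6.66, 7.17 and 7.22 in part 7. Pappa stayed high in parts 6 and 7, where its mean was below the middle by 0.58, and all 3 arrays of part 1 were under the table median.

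Gdnf, the ligand of the RET receptor that draws out the ureteric bud, switched between near 0 and clear signal from array to array (1419080_at). Its arrays read 4.08, 4.06 and 4.34 in part 1, 5.54, 4.05 and 6.60 in part 2, 6.16, 6.88 and 7.10 in part 3 and 6.16, 5.74 and 6.58 in part 4. They read 4.04, 5.50 and 7.22 in part 5, 4.15, 4.20 and 6.41 in part 6 and 4.07, 5.84 and 6.87 in part 7. A signal of 0 is 4 on this scale, so Gdnf was near 0 in part 1 and also in 1 array each of parts 2, 5 and 7 and in 2 of part 6, and the arrays of replicate 3 were the highest in all 7 parts.

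Grem1, a secreted BMP antagonist, had 7.49 ± 0.47 in part 3, 7.27 ± 0.71 in part 4 and 6.25 ± 1.35 in part 5. Smoc1, a matrix protein that modulates BMP signals, had a tighter and later profile, with 9.23 ± 0.28, 9.85 ± 0.21, 9.95 ± 0.16 and 9.50 ± 0.29 in parts 3 to 6. Emilin2, a glycoprotein of elastic fibres, lay earlier, at 7.94 ± 0.49, 8.15 ± 0.35 and 8.05 ± 0.36 in parts 2 to 4. Gzmk, a granule serine protease of lymphocytes, was measured at 7.37 ± 0.14 in part 4 and 5.24 ± 0.07 in part 7, with 6.95 ± 0.15 already in part 2.

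The cell surface and membrane proteins, 14 genes, formed the largest class. F11r, the junction adhesion molecule JAM-A, had 8.67 ± 0.22 and 8.48 ± 0.02 in parts 4 and 5 against 6.66 ± 0.65 in part 1 and 7.51 ± 0.10 in part 7. Ajap1, a protein of adherens junctions, read 7.14, 6.77 and 7.37 in part 4 and 7.15, 7.02 and 7.07 in part 5. In part 1 Ajap1 read 4.62, 5.10 and 4.81, and in part 7 5.00, 6.43 and 5.08, where replicate 2 again lay apart. Mertk, a receptor kinase for the clearance of dying cells, had a narrow summit in part 4, at 7.65 ± 0.41 between 6.77 ± 0.54 and 6.69 ± 0.26 in parts 3 and 5.

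Megf10, another engulfment receptor, was dim and lay just inside the threshold, with 5.09 ± 0.29 in part 4. Sema4g, a transmembrane semaphorin, was at 7.76 ± 0.25 in part 4 and at 5.83 ± 0.48 in part 7. Agtr1b, an angiotensin receptor, had 5.78 ± 0.16 and 5.86 ± 0.16 in parts 3 and 4. Kcnk3, a background potassium channel, was under the table median in all 3 arrays of 5 parts and reached 5.25 ± 0.44 in part 5.

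Wscd2, named for its WSC domain, was dim throughout, where the added 16 compresses the spread. Its middle arrays lay between 4.96 and 5.68 and its flank arrays between 4.02 and 4.82. Plvap, a protein of endothelial diaphragms, had nearly equal arrays in part 3, at 8.04, 8.20 and 8.22, while in part 2 they ran from 4.15 to 7.92 and in part 6 from 4.20 to 7.16. Sel1l3, Tmem37, Lhfp and Atp10d completed the class, with part 4 means of 5.79 ± 0.44, 5.85 ± 0.30, 7.94 ± 0.47 and 8.54 ± 0.36. RefSeq lists mouse Atp10d, a relative of lipid flippases, as a transcribed pseudogene.

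Of the 8 genes for intracellular proteins, Marchf3 is described above and Rnf213 is also a ubiquitin ligase. Rnf213 had 9.14 ± 0.16 in part 4, 7.93 ± 0.38 in part 1 and 7.52 ± 0.55 in part 7. Frmd4a, a FERM-domain scaffold of epithelial polarity, read 9.70, 9.47 and 9.45 in part 3, 10.16, 9.87 and 9.49 in part 4 and 10.56, 10.34 and 9.82 in part 5, and its highest flank array read 9.42. Piwil4, a PIWI protein known from the male germ line, read 6.57, 6.54 and 6.43 in part 4, and its mean in part 1 was 4.57 ± 0.51.

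Syt9, a calcium sensor of vesicle release, had its summit in part 5 for every replicate number, at 7.79, 7.45 and 8.85. Blnk, an adaptor of B cell receptor signalling, read 9.55, 8.86 and 7.71 in part 5 and ranged from 6.03 to 8.49 over the arrays of part 7. Rgs16, which shuts off G protein signals, had 5.85 ± 0.37 in part 4 and 4.57 ± 0.12 in part 7. Fgf13, an intracellular relative of the FGFs that binds sodium channels, had 8.68 ± 0.24 in part 4 and 8.69 ± 0.13 in part 5 against 7.53 ± 0.60 in part 1. Gm9899, the 1 noncoding member, overlaps Kcnk3 in the RefSeq annotation and reached 5.26 ± 0.02 in part 4.

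The genes lie on 17 chromosomes, 6 of them on chromosome 5. Gm9899 and Kcnk3 overlap, and Marchf3 and Megf10 are neighbours on chromosome 18, so these pairs need not be independent measurements. Of 18 genes with further probe sets, 10 had 19 that reached the filter. In 17 of the 19 both differences were above 0, and in 7, from 6 genes, both were 0.5 or more. Pcdh19 had such a pair, with smaller differences of 0.84 and 1.07, and the others belonged to Marchf3, Isl1, Arid5b, Zeb2 and Auts2. One further probe set each of Rnf213 and Auts2 went against the rule, at -0.30 and -0.14 from parts 6 and 7.

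Arrays that the selection did not use give a check on the summit. When the rule was applied to the arrays of 2 replicate numbers alone, it kept 59, 53 and 50 genes with replicate 1, 2 or 3 left out. In the arrays left out, both differences were above 0 for 39, 36 and 36 of them, or 66.1%, 67.9% and 72%, against 20.4%, 24% and 21.8% of all genes that reach the filter. The median of the smaller difference was 0.18, 0.34 and 0.29 there, against 0.66, 0.64 and 0.61 in the arrays that chose the genes. The 0.5 that the rule asks for was reached there by 37.3%, 35.8% and 40% of them. The share of all genes that reach 0.5 there was not computed. Over all genes that reach the filter, the median smaller difference there was -0.17, -0.12 and -0.14. Of the genes kept in this way, 32, 31 and 27 were among the 38 members. The left and right PSM of an embryo may stand on either side of such a split, so the arrays left out need not be of another embryo.

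Differences between parts within the middle and within each flank did not enter the rule directly. A gradual rise to the middle and fall after it, a shape the selection favours, can still show in them. They were tested with limma across all 12141 genes, with Benjamini-Hochberg adjustment. In the fit with no term for the replicate number, part 5 was called above part 3 for 2 of the 38 genes and below it for none. That is 5.26% called, against 2.62% of all genes. Calls with the number as a block are given at the end. Pappa rose by 1.44 ± 0.29 (SE, adjusted p = 0.00734) and Frmd4a by 0.70 ± 0.18 (adjusted p = 0.0414). In both genes part 5 was above part 3 in all 3 replicate numbers. At an unadjusted p under 0.05 there were 9 members and 13.9% of all genes. The call for Pappa was lost without replicate 1 or without replicate 2, where its adjusted p was 0.141 and 0.181, and that for Frmd4a was lost in 6 of 13 alternatives, with adjusted p-values up to 0.492.

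The members lay on both sides of 0, 18 of 38 above it, with a median of -0.05 that lay close to the median of all genes, -0.03. The highest values among those that did not pass were Zeb2 at 1.36 ± 0.46 (adjusted p = 0.14) and Ajap1 at 0.98 ± 0.29 (adjusted p = 0.0776). The lowest were Plvap at -1.42 ± 0.91, Grem1 at -1.24 ± 0.61, Gdnf at -1.13 ± 0.77, Prrx1 at -1.10 ± 0.66 and Isl1 at -1.07 ± 0.59. The SE was 0.59 or more in these 5 and in Marchf3, and smaller in the other members. With replicate 3 left out, Grem1, Isl1 and Arid5b were called beside Pappa and Frmd4a, and the share of all genes called there was not computed.

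Part 4 was not called against the mean of parts 3 and 5 for any member by limma, nor for any gene at all (0%). At an unadjusted p under 0.05 there were 5 members and 2.18% of all genes. The value was above 0 in 32 of 38 members, with a median of 0.25 against 0.00 over all genes, and Mertk had the highest at 0.92 ± 0.21 (adjusted p = 0.385). Wscd2, Kcnk3, Gm9899 and Megf10, which passed the filter only with the middle arrays, are among the 32. The rule used the mean of the middle parts, which this difference does not enter. A rise to the centre is still a shape the selection favours, so all genes are no like reference and nothing is read from the 32.

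Part 2 was above part 1 in value for 35 of 38 members, with a median of 0.58 against 0.00 over all genes. A graded rise toward the middle, which the selection favours, itself places part 2 above part 1, so nothing is read from this count. At an unadjusted limma p under 0.05 there were 14 members and 11.5% of all genes. Wscd2, Kcnk3 and Gm9899 are among the 35, with all arrays of both parts under the table median. By limma, in the fit with no term for the replicate number, 2 of the 38 members rose (5.26%), against 0.799% of all genes called in either direction. Piwil4 rose by 1.11 ± 0.24 (adjusted p = 0.027) and Smoc1 by 1.15 ± 0.26 (adjusted p = 0.0401), each in the same direction in all 3 replicate numbers. Pcdh19 had the largest value, 1.95 ± 0.46, and Emilin2 had 1.06 ± 0.25, and both missed the threshold at an adjusted p of 0.0511. Piwil4 lost its call in 8 of 15 alternatives and Smoc1 in 9 of 15, with adjusted p-values up to 0.512 and 0.385.

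Megf10, Blnk and Frmd4a were the members with values below 0, at -0.38 ± 0.24, -0.21 ± 0.58 and -0.08 ± 0.18. Part 2 carried a split between its arrays that several members share. In 13 of 38 members its replicate 3 was the highest and its replicate 2 the lowest array, against 18% of all genes. Gdnf, Prrx1, Osr1, Tcf21 and Plvap were near 0 in replicate 2, at 4.05 to 4.15, and between 5.72 and 7.92 in replicate 3. Without replicate 2 of part 2, Auts2 was the 1 member called, and Piwil4 and Smoc1 had adjusted p-values of 0.0557 and 0.0991. Without replicate 3 of part 2, Emilin2, Fgf13 and Smoc1 were called and Piwil4 was not, at a limma adjusted p of 0.0757. For neither of these fits was the share of all genes called computed.

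**Figure D3:**
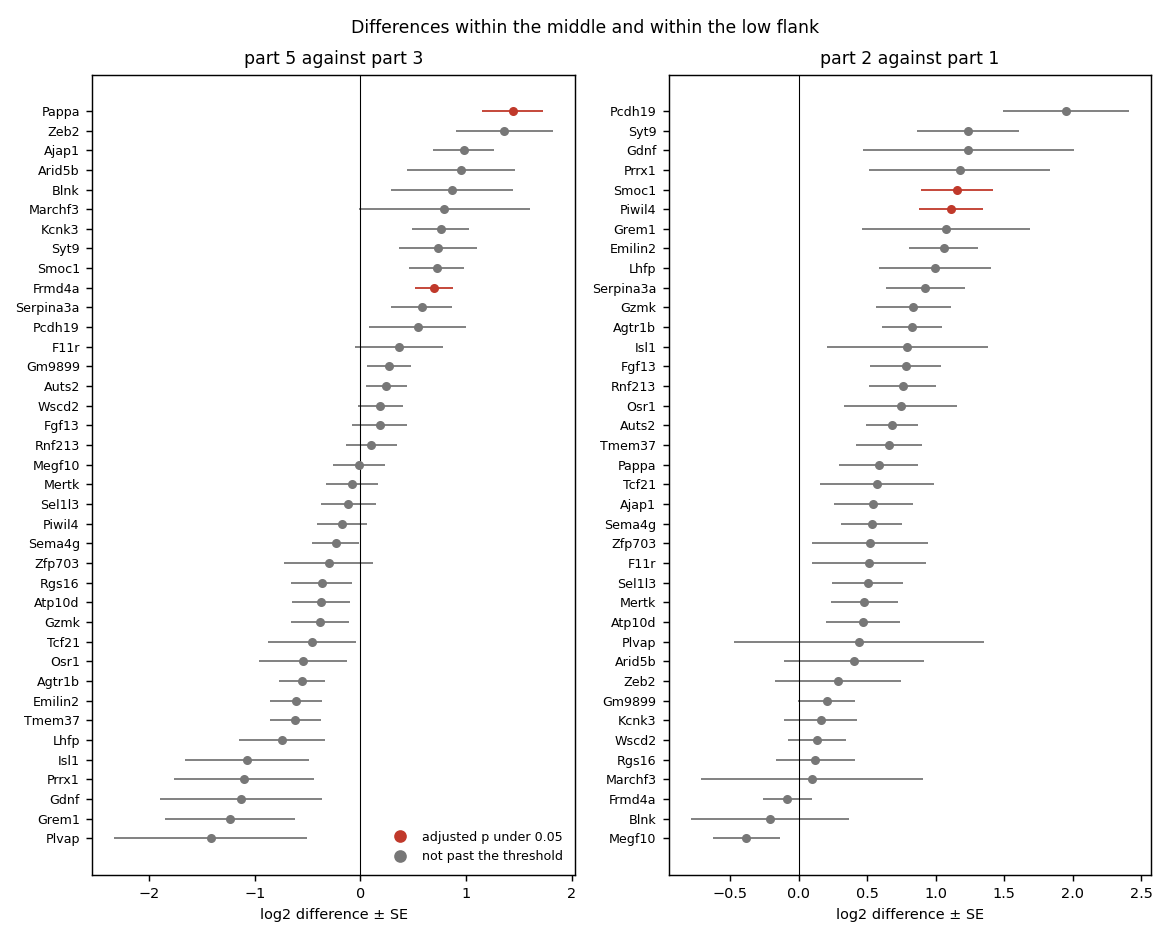
Log2 differences with their SE from the limma fit (horizontal axes) for the 38 genes, part 5 against part 3 on the left and part 2 against part 1 on the right, each sorted by its own values; red marks an adjusted p under 0.05. Pappa and Frmd4a are called on the left, where the values lie on both sides of 0, and Piwil4 and Smoc1 on the right, where 35 of 38 lie above 0.

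Part 7 was not called against part 6 for any member by limma, nor for any gene (0%), and 6 members and 4.79% of all genes had an unadjusted p under 0.05. The value was below 0 in 27 members, with a median of -0.27 against 0.02 over all genes. The selection favours a graded fall after the middle, so nothing is read from this count. In Megf10 and Kcnk3, among the 27, and in Wscd2, above 0, all arrays of both parts were under the table median. In 21 of 38 members replicate 2 was the highest of the 3 arrays of part 7, against 26.6% of all genes. Without that array 5 members fell, against 0.511% of all genes called in either direction, with a median of -0.44 over the 38.

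Pcdh19 fell by 2.37 ± 0.34 (limma, adjusted p = 0.0021, against 0.728 with all arrays), and its 2 remaining arrays in part 7 read 8.52 and 8.16 against 10.52 to 10.92 in part 6. Ajap1 fell by 1.20 ± 0.22 (adjusted p = 0.0196) on the same arrays. Sema4g, Smoc1 and Rnf213 fell by 1.07, 1.07 and 1.06, with adjusted p-values of 0.0376, 0.0376 and 0.0471. Leaving out the array was chosen after its values were seen, and whether it was cut at another position than its label gives was not tested.

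Replicate numbers also divided the members. Replicate 3 against the mean of replicates 1 and 2, with the parts as a term, was called for 19 of 38 genes, against 37.1% of all genes, so a large share of all genes also passed. Of these 13 were higher and 6 lower in replicate 3, a comparison made after the values were seen. The highest by limma were Gdnf at 1.41 ± 0.29 (adjusted p = 0.000706), Grem1 at 1.16 ± 0.22 (adjusted p = 0.00046), Isl1 at 1.07 ± 0.22 (adjusted p = 0.000923), Arid5b at 0.97 ± 0.19 and Prrx1 at 0.90 ± 0.31.

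Lhfp at 0.79, Syt9 at 0.70, Osr1 at 0.66, Pappa and Atp10d at 0.54, F11r at 0.49, Sel1l3 at 0.43 and Auts2 at 0.29 were also higher in replicate 3. Marchf3 was lower by the most, at -1.52 ± 0.29 (limma, adjusted p = 0.000468), then Blnk at -1.13 ± 0.19 (adjusted p = 0.00013). Emilin2 at -0.45, Fgf13 at -0.41, Kcnk3 at -0.35 and Gm9899 at -0.29 were also lower. Kcnk3 was under the table median in all arrays of 5 parts and Gm9899 in all arrays of 3 parts. Gdnf and Pappa were highest in replicate 3 in all 7 parts, and Isl1, Osr1, Arid5b, Grem1, Sel1l3, Syt9, Auts2, Lhfp and Atp10d in 6 of 7. The median SD within a part was 0.32 over the members against 0.21 over all genes that reach the filter.

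Sums of markers of neighbouring tissues are set beside some of these genes, with no correlation computed. The dissection was meant to remove the lateral plate, and of 9 listed markers of lateral and intermediate mesoderm 8 were measured and 5 reached the filter, Osr1 among them. Both differences were above 0 in 3 of the 4 other than Osr1, a member by the rule. The share of all genes with this over all arrays was not computed, so nothing is read from the 3. Foxf1, Hand1 and Gata4 missed the filter, and Hand1 and Gata4 never reached the table median. The summed signal of the 7 measured markers other than Osr1 ran from 49.7 to 169 in the middle arrays and from 35.8 to 116 in the flank arrays. Replicate 3 had the highest sum in 6 of 7 parts, as for Isl1, Osr1 and Grem1. In part 4 the sums were 64.4, 111 and 169, and in part 2 they were 52.9, 42.3 and 116, with replicate 2 low and replicate 3 high, as for Gdnf, Prrx1 and Tcf21. In part 7 the sums were 66.8, 67.0 and 97.3, each above the array of its number in part 5, at 49.7, 53.5 and 80.3. Osr1 had a lower mean in part 7 than in part 5, 5.18 against 6.01, and Grem1 a higher one, 6.40 against 6.25. Replicate 3 also differed for 37.1% of all genes, in either direction. The part of lateral and intermediate cells in these profiles was not tested.

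Endothelial markers, 9 measured and 8 over the filter, summed to 201 to 836 in the middle and to 67.9 to 1213 in the flanks. In 6 of the 8 both differences were above 0, and Pecam1 was the 1 that missed the filter. The share of all genes with both differences above 0 over all arrays was not computed, so nothing is read from the 6. In part 2 the sums were 642, 89.5 and 1213, where Plvap read 7.70, 4.15 and 7.92. In part 3 they were 685, 565 and 836, where Plvap read 8.04, 8.20 and 8.22, and in part 6 they were 270, 67.9 and 71.9, where Plvap read 7.16, 4.47 and 4.20. Plvap thus had the order of the endothelial sum in part 2, and in part 6 replicate 1 was the highest of both. The part of vessel cells in its profile was not tested. Gut endoderm and neural crest sums were also highest in replicate 3 in 6 of 7 parts, and neural tube and somite sums in 0.

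**Figure D4:**
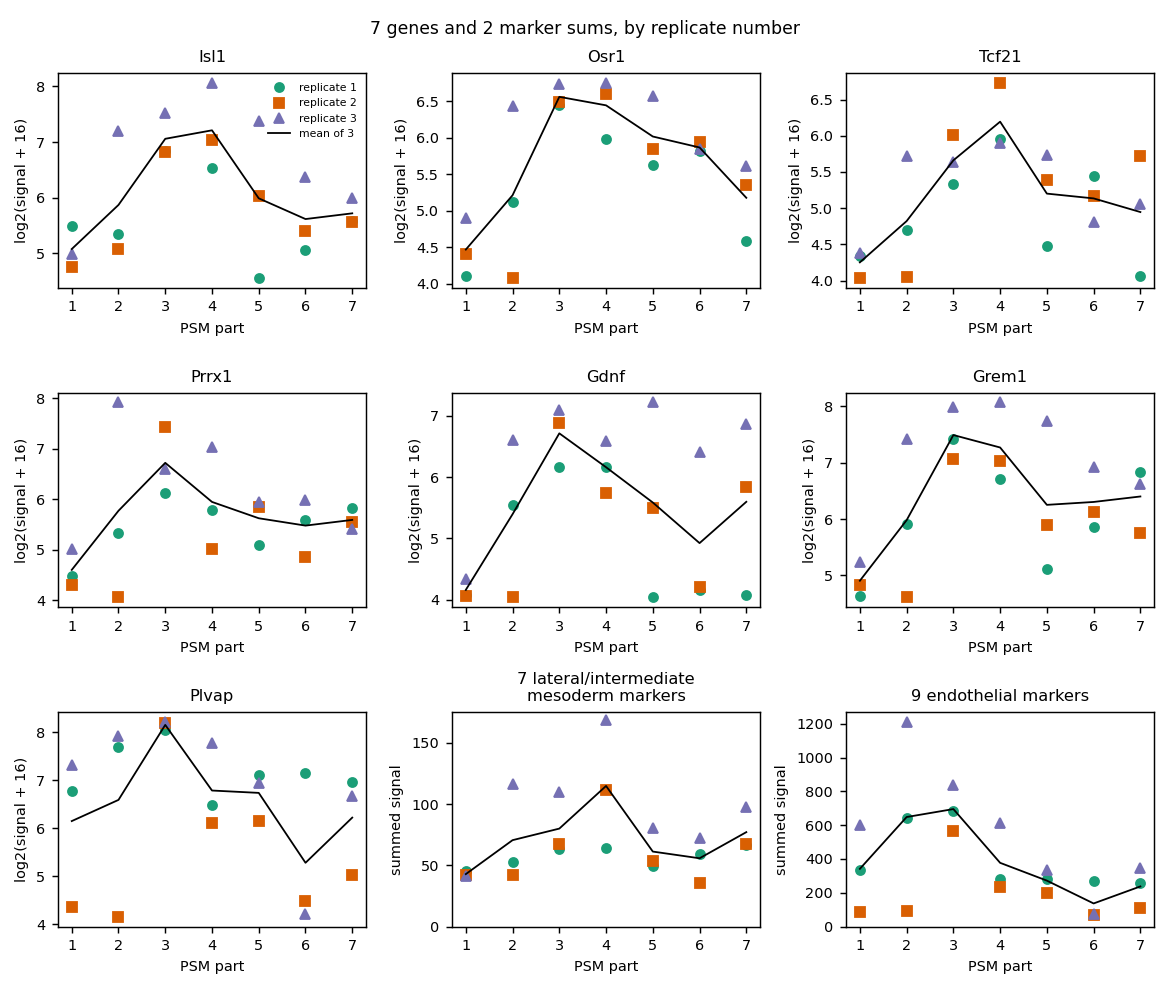
The first 7 panels show log2(signal + 16) of Isl1, Osr1, Tcf21, Prrx1, Gdnf, Grem1 and Plvap by PSM part, and the last 2 show the summed signal of 7 lateral or intermediate mesoderm markers and of 9 endothelial markers; symbols are the arrays of replicates 1 to 3 and lines join the part means. Replicate 3 is the highest array in most parts for Isl1, Osr1, Gdnf and Grem1, and in 6 of 7 parts for both sums.

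None of the 38 genes stood in the lists of cyclic genes, segment boundary genes, or Notch, Wnt and FGF pathway genes. The 38 are a small share of the 12141 genes that reach the filter and the lists are short, so nothing is read from this absence. The rule also leaves out symbols that start with Hes or Hey, so Hes1, Hes5, Hes7, Hey1 and Heyl of the cyclic list could not be members. The boundary genes Mesp1, Mesp2 and Pcdh8 had the size the rule asks for and were left out by name. Grem1 stood in the list of BMP and TGF-beta genes, and Zeb2 and Pcdh19 in that of adhesion genes. By limma, part 5 was above part 3 for 9 of 20 segment boundary genes and below it for 0, with a median of 1.01. It was above for 8 and below for 0 of 13 genes of somite differentiation, with a median of 1.69, where the 38 members had 2 and 0.

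Of 15 posterior PSM genes 1 was above and 3 were below, with a median of -0.80, and of 18 FGF pathway genes 2 were above and 4 below, with a median of -0.64. Among 25 Notch and 23 BMP and TGF-beta genes 1 each was above and 1 below, and among 19 adhesion genes 0 were above and 1 below. Between parts 1 and 2 the posterior list had 4 of 15 lower in part 2, where the members had 2 higher. All these counts come from the same fit as the members' own.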

How the data were processed

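Total RNA of 7 PSM parts, with 3 replicate arrays each, was hybridised to Affymetrix arrays after repeated amplification, which can distort low levels. Each deposited value is a linear intensity for 1 probe set, and per the submitters' processing notes the tool was MAS5 (version and scaling target not given in the sources used here). It is noisy at low signal, and array means of 151 to 154 hide a change shared by most genes. Of 45101 probe sets, 34945 had 1 symbol in the platform annotation, and the brightest probe set stood for each of 18193 genes. A pseudocount of 16 was added before log2. Genes at or above the table median of 13.3 in at least 3 arrays were tested, 12141 in all, with limma 3.58.1 in R 4.3.3 (1 fit over 7 parts, mean-variance trend, threshold 0.05). Group membership came from sample titles. No 2 arrays were identical. Precision is limited by having 3 arrays a part. The fit was tested on simulated data. Symbols, positions and promoters came from RefSeq on GRCm38.p6, where all 38 symbols were found.

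The members, gene lists and tests were chosen with earlier results of these data known. The rule for named genes took the 25 with the largest smaller difference, up to 5 each way called in a contrast, list members, genes behind counts of 5 or fewer and the 3 on each side of the threshold, and the rest were named to account for every member. Alternatives were pseudocounts of 1 and 64, other filters and normalization, the mean of probe sets, no trend, only the parts compared, a replicate block and replicates or single arrays left out.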

Additional observations from a re-analysis of the deposited data

How the results depend on the processing

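The number of genes kept moved most with the scale: 380 with a pseudocount of 1, which include all 38, and 12 with a pseudocount of 64. It was 25 with probe sets averaged, 24 of them shared, 14 and 4 with differences of at least 0.75 and 1, 50 to 59 with a replicate number left out, and 40 without replicate 2 of part 7. In the arrays left out, the median smaller difference was 0.18 to 0.34. Members called between parts 5 and 3 were 1 without a filter, 1 with quantile normalization, 1 without the trend, 4 with only the parts compared, and 0 to 5 with a replicate left out. Between parts 2 and 1 they were 1 with a pseudocount of 1, 0 without a filter, 1 with a filter at the 75th percentile, 1 with the mean of probe sets, 1 without the trend, 0 with only the parts compared, 0 to 2 with a replicate left out and 1 without replicate 2 of part 2. Between parts 7 and 6 they were 0 to 1 with a replicate left out and 5 without replicate 2 of part 7. Part 4 gave 0 throughout. Members called with the chosen settings kept their sign in every alternative, and the signs of the other members were not followed. Pappa, not called between parts 7 and 6, had 0.02 with all arrays and -0.06 without replicate 2 of part 7. The labels do not say what arrays of one replicate number share. In their deviations from the part means 55 of 63 same-numbered pairs correlated over 0.1, not all. All 21 pairs of replicate 3 did so, at a mean r of 0.53, against 0.22 and 0.24 for replicates 1 and 2. Of 21 arrays, 18 correlated best with their own number, a hint from the data that the numbers may mark a shared source. With the number as a block, calls were 5 between parts 5 and 3, 9 between parts 2 and 1, and 0 in the others. The cause of these moves was not tested. Among the alternatives, the share of all genes called was computed only without replicate 2 of part 7, at 0.511% between parts 7 and 6. The other member counts, those with the block among them, cannot be set against all genes. No depth can be given for MAS5 signal, and values near 4 are at the floor.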
